A study of Mus musculus with 4 samples.

Results

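The variable (V) segments of the T cell receptor alpha chain, whose gene symbols begin with Trav and a digit, were followed in tumour CD8+ T cells of 2 mouse libraries. Of 31253 gene rows in the deposited matrices, 130 were V alpha segments, and all 130 were kept as members. In Young, 9803 of 10538 cells that passed the filters on depth carried at least 1 unique molecular identifier (UMI, the count of 1 captured RNA molecule) of a CD3 gene and 1 of a CD8 gene. In Aged, 8252 of 8798 such cells did. Each of these cells was given the V alpha segment with most UMIs in it, which left 6379 Young cells and 5572 Aged cells with a top segment.

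Both libraries came from Rag1-deficient mice of 8 to 10 weeks, which make no T cells of their own, and which received donor CD8+ T cells by vein on the day MB49 tumour cells were inoculated. MB49 is a mouse bladder carcinoma line. Donors were 8 weeks old for Young and 18 months old for Aged, the host strain is labelled B6.129S7-Rag1tm0Mom/J for Young and B6.129S7-Rag1tm1Mom/J for Aged, and cells positive for CD45 and CD8 were sorted from the tumours. Each library pooled 3 mice, the cells of which cannot be told apart here, so there was no replicate and no test between groups, and every interval below is a 95% interval for counting error alone. A segment that stood high in a library may have come from 1 mouse of the 3, and donor age, host label and library cannot be told apart.

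The alpha chain of a T cell receptor is assembled in the thymus, where a V segment is joined to a J segment with bases added or removed at the join. The beta chain is assembled first, from V, D and J segments, and the alpha locus can go on rearranging on both chromosomes, so that a mature T cell may carry RNA of more than 1 alpha chain. The V segment encodes the parts of the chain called CDR1 and CDR2 and the start of CDR3, the loop that contacts the peptide held by MHC. All daughters of a T cell keep its rearrangement, so a V alpha segment together with a V beta segment is a coarse mark of descent. In mice of the C57BL/6 type a stretch of the V alpha locus is present in several copies, and segments from these copies carry d or n in their names.

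The last 60 bases of the leading segments are shown because they lead into the join that makes each receptor different: the capitals run from the codon of the conserved cysteine to the end of the germline segment, where the join is made. All are on chromosome 14, plus strand, in mm10 (GENCODE M21), and all are annotated as V genes, not pseudogenes. The 5 from the leading pairs of Young come first, at chr14:53665929-53666506, chr14:53370077-53370575, chr14:52427928-52428876, chr14:53491115-53491622 and chr14:53461099-53461738.
Trav3-3: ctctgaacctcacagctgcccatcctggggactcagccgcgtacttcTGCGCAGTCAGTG
Trav14n-3: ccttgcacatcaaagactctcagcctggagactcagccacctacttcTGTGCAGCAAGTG
Trav1: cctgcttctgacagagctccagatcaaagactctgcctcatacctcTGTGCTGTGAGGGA
Trav6-5: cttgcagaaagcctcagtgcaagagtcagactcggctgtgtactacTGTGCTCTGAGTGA
Trav7-4: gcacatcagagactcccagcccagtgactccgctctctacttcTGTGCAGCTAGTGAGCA
The next 5 are the leading segments of Aged other than Trav16n, at chr14:53845234-53845827, chr14:53806639-53807115, chr14:53616315-53616914, chr14:53428711-53430377 and chr14:52851290-52851866.
Trav19: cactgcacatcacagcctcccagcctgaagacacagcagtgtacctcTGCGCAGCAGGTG
Trav17: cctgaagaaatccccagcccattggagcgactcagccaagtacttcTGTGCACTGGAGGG
Trav12-2: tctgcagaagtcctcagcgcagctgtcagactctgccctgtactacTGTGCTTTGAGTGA
Trav6-3: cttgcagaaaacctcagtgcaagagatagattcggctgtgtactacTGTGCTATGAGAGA
Trav13d-1: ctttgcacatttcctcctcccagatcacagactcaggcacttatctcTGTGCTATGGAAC

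How well a V alpha segment could be counted depended on how much of it is unlike every other gene. For each segment the share of its transcript's 60-base words found in no other annotated gene was computed. In 41 of the 130 segments no word was unique. These 41 held 29 UMIs over both libraries, with at most 6 for any of them, and 8 of them had a UMI. The 59 segments with 50% or more unique words held 71.9% of the 52712 V alpha UMIs, and the 24 with 10 to under 50% held 27.5%. A UMI was seen for 87 segments in all, 81 in Young and 85 in Aged. So a segment at 0 here is not shown to be unused, and near-identical copies may share or lose their molecules: 25 pairs of segments within a family had no mismatch over the length compared.

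Copies of 2 kinds show what this means for the members. The last 90 bases of Trav14n-3, the second commonest segment in Young, differ from those of Trav14-3 (chr14:53763173-53763694) at 3 positions, shown in capitals, and 55.6% of the words of Trav14n-3 were unique.
Trav14n-3: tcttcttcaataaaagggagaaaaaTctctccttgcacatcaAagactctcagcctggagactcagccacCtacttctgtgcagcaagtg
Trav14-3: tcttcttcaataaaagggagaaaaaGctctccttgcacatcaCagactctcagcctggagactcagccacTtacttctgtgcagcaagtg
Trav11 (chr14:53519303-53519859) and Trav11d (chr14:52824357-52824912) had no mismatch over 342 bases, and none of their words was unique. Trav11 is the segment of the invariant alpha chain of natural killer T cells. Over the 89 bases printed here the copies are letter for letter the same, so no letter is in capitals.
Trav11: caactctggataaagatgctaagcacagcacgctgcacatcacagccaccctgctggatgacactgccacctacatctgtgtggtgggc
Trav11d: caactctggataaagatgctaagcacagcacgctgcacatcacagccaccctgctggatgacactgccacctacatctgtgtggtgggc
Trav11 had 0 UMIs in Young and 2 in Aged, and Trav11d had 0 in both, so use of this segment could not be measured from these rows.

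V alpha RNA was seen in most T cells and in few fibroblast or tumour cells. In Young, 71.5% of the CD3 and CD8 positive cells had a V alpha UMI (interval 70.6 to 72.4%), and in Aged 72.3% did (71.3 to 73.3%). Fibroblast or tumour cells of the same libraries with no CD3 or CD8 UMI had one in 5 of 147 cells in Young (3.40%) and in 0 of 131 in Aged, which allows a share of up to 2.29% by 3 counts of the total and 2.78% by the exact interval, although their median depth was 22193 and 22973 UMIs. All cells that passed the filters but lacked a CD3 UMI, a CD8 UMI or both include these fibroblast or tumour cells. Of them, 22.6% of 735 in Young and 20.9% of 546 in Aged had a V alpha UMI, at median depths of 3194 and 2493 UMIs. The median depth of the T cells was 4510 UMIs in Young and 5768 in Aged. Thinned to 2000 UMIs per cell, 52.1% of 9192 Young cells and 49.5% of 8051 Aged cells had a V alpha UMI, with 611 and 201 shallower cells left out, and 3 of 138 and 0 of 122 of the fibroblast or tumour cells did. A top segment without a tie was found in 65.1% of Young and 67.5% of Aged cells, and rested on 1 UMI in 26.9% and 24.0% of these. V beta UMIs were denser and were seen in 93.0% and 94.5% of cells.

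Facts of the libraries that bear on these shares were as follows. The T cells held 26830 V alpha UMIs in Young and 25882 in Aged, which is 441 and 397 CPM (UMIs scaled to a total of 1000000) of 60805219 and 65140183 UMIs. Of the marker lists of other cells, the summed level in the T cells was 88.6 CPM in Young and 55.1 in Aged for the 8 myeloid genes and 183 and 48.7 CPM for the 5 tumour or epithelial genes, and Cd4 stood at 0.674 and 7.14 CPM. The part of this RNA in the results was not tested. The libraries shared 145 cell barcodes, of which 55 had a top V alpha segment in both and 1 had the same segment in both.

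A few V alpha segments held most of the Young cells. Trav3-3 was the top segment of 1297 cells, or 20.3% (19.4 to 21.3%), and 84 Aged cells, or 1.51% (1.204 to 1.86%). Trav14n-3 followed with 636 Young cells (9.97%) and 189 Aged cells (3.39%). Trav1, the segment of the invariant alpha chain of mucosal-associated invariant T cells, was on top in 495 Young cells (7.76%) and 54 Aged cells (0.969%). Trav6-5 was on top in 5.33% of Young and 0.646% of Aged cells, and Trav7-4 in 5.14% and 0.700%. Of the 8 commonest segments in Young, Trav12-2 and Trav16n were the exceptions to this order: Trav12-2 held 6.24% of Young and 5.81% of Aged cells, with intervals that overlap, and Trav16n held 2.84% and 5.38%. The 8 commonest segments held 61.2% of the Young cells, and 6 segments were enough for 50% of them.

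Other V alpha segments led in Aged, and the leader was far smaller. Trav19 was on top in 401 Aged cells, or 7.20% (6.53 to 7.91%), and in 29 Young cells, or 0.455% (0.305 to 0.652%). Trav17 was on top in 331 Aged cells (5.94%) and 63 Young cells (0.988%). Trav6-3 held 5.19% of Aged and 0.298% of Young cells, Trav13d-1 4.63% and 0.188%, Trav6-4 4.41% and 0.0470%, and Trav5-4 4.16% and 0.408%. The share of Trav6-4 rested on 3 Young cells. The 8 commonest segments held 42.7% of the Aged cells, and 11 segments were needed for 50%. Over the 83 segments with a cell in either library, the shares in Young and Aged correlated with Pearson's r = 0.19 and Spearman's rho = 0.65 as a description across segments, which share their limits of countability in both libraries. Trav12-2 and Trav16n were among the 8 commonest in both.

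**Figure D1:**
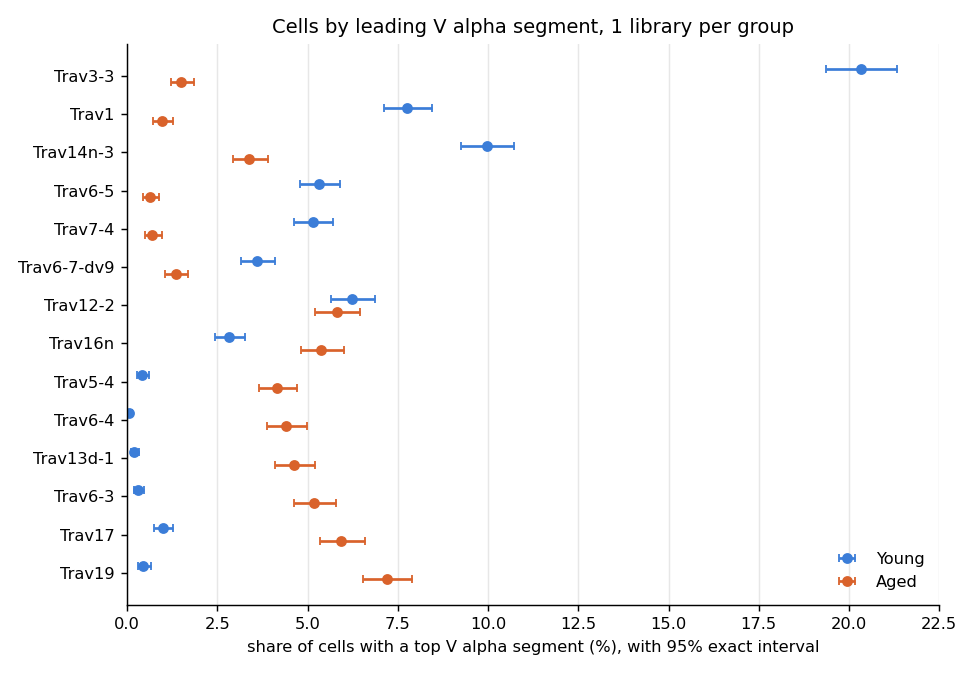
Share of cells (x axis, %) for each V alpha segment among the 8 commonest of Young or of Aged (y axis), in Young (blue) and Aged (orange), with points for the 1 library of each group and bars for the 95% exact interval. Trav3-3 stands apart at 20.3% in Young, and no Aged segment passes 7.20%.

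Further segments with 100 or more cells over both libraries differed in share by 3 times or more. Lower in Aged were Trav6d-5 (2.77% of Young and 0.646% of Aged cells), Trav7-3 (2.18% and 0.395%) and Trav13-2 (2.05% and 0.377%). Higher in Aged were Trav10n (0.141% and 2.40%), Trav10d (0.157% and 1.83%), Trav13n-1 (0.329% and 2.57%), Trav9n-4 (0.329% and 1.53%), Trav9-2 (0.705% and 2.84%), Trav14-3 (0.580% and 2.40%) and Trav16 (1.02% and 3.27%). Of the segments named so far, Trav1, Trav17 and Trav19 were unique over their whole length, while 13.1% of the words of Trav9n-4, 13.4% of those of Trav6-3, 19.3% of those of Trav13d-1, 22.1% of those of Trav13n-1, 21.6% of those of Trav10d, 28.5% of those of Trav6-5 and 30.6% of those of Trav7-4 were. Their shares are therefore uncertain in a way that counting intervals do not cover.

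Merged to numbered families, Trav3 held 22.7% of Young and 2.71% of Aged cells, while Trav6 held 14.3% and 14.8% and Trav12 held 9.05% and 10.1%. Trav14 stood at 12.3% and 6.98%, Trav13 at 5.78% and 10.7%, Trav16 at 4.86% and 9.60%, and Trav9 at 2.79% and 7.54%. Within Trav6 the commonest member was Trav6-5 in Young and Trav6-3 in Aged, while within Trav12 it was Trav12-2 in both. By position, segments with no copy letter held 77.0% of Young and 69.2% of Aged cells, the d copies 6.38% and 12.2%, and the n copies 16.6% and 18.6%.

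Among the cells with a top V alpha segment, the segments were less even in Young than in Aged. Cells with no V alpha UMI are left out of this. Those with Trbv12-1 numbered 132 in Young and 773 in Aged, or 1.35% and 9.37% of the T cells. Their part in the order of the libraries was not tested. Evenness is given as the effective number, the number of equally common segments that would give the same chance of drawing the same segment in 2 cells. It was 13.5 V alpha segments in Young (12.9 to 14.1) and 29.9 in Aged (28.9 to 30.9). V beta segments had no such order: over all cells with a top V beta segment it was 9.81 in Young (9.59 to 10.04) and 8.59 in Aged (8.28 to 8.90), but over the cells that also had a top V alpha segment it was 8.75 (8.48 to 9.03) and 9.57 (9.21 to 9.93). For pairs of a V alpha with a V beta segment it was 22.96 in Young (21.4 to 24.6), over 5876 cells, and 52.9 in Aged (49.97 to 55.8), over 5251 cells. Without the leading pair of each library, the effective number of V alpha segments was 20.7 in Young and 29.6 in Aged, and that of pairs 46.8 and 56.3. So the leading pair alone took the Young pair number from 46.8 to 22.96, and the order of the libraries was the same with and without it.

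**Figure D2:**
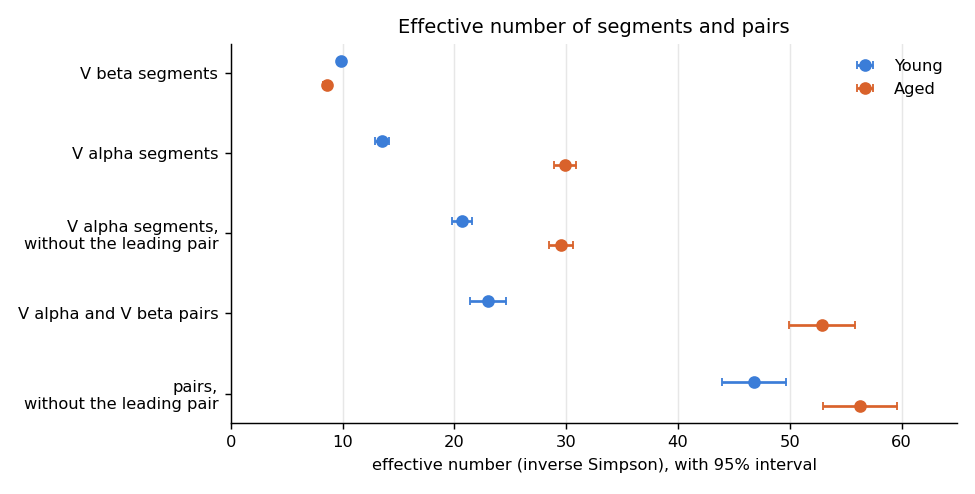
Effective number (x axis, inverse Simpson number) of V beta segments, V alpha segments and pairs, with and without the leading pair of each library, in Young (blue) and Aged (orange), with bars for the 95% interval. V alpha segments and pairs stand higher in Aged (29.9 and 52.9) than in Young (13.5 and 22.96), while V beta segments of all cells stand at 9.81 in Young and 8.59 in Aged.

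Summed RNA gave the same first segment as cells did, Trav3-3 in Young and Trav19 in Aged, but not the same order after it: in Aged, Trav13n-1 stood at 16.9 CPM and Trav6-3, which led more cells, at 11.9. Only 10 of the 130 V alpha segments passed the filter of 20 UMIs and 10 CPM over both libraries. Of these, 4 were at least 1.5 times higher and 6 at least 1.5 times lower in Aged, and 0 lay between. Without the filter 27 were higher and 17 lower. The share over all genes without the filter is not given here, so these counts are not read as a result about the segments. Over all 7674 genes that passed the filter, 1.99% were at least 1.5 times higher and 2.88% at least 1.5 times lower. Since a segment could pass the filter through the library where it was high, these 10 are not a count over all members. Trav3-3 stood at 72.6 CPM in Young and 6.17 in Aged, a ratio of 0.0851 (0.0766 to 0.0942). Trav19 stood at 2.70 and 34.4 CPM, a ratio of 12.7 (10.9 to 15.02). Trav12-2, with like shares of cells in both, stood at 43.1 and 17.9 CPM, so its cells and its RNA gave different ratios. The share counts only cells where Trav12-2 was on top, and its RNA also lay in other cells. In Young, 274 of the 367 cells of Trav14n-3 with Trbv12-1 had a UMI of Trav12-2.

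The genes of the receptor outside the V segments were level. Trac, the constant region that every alpha chain shares, stood at 218 CPM in Young and 216 in Aged, a ratio of 0.992 (0.969 to 1.02). The ratio was 1.10 for Trbc1 and 0.990 for Trbc2, the beta constant regions, and lay between 0.951 (Cd247) and 1.21 (Cd8a) for the CD3 chains, Cd247, Cd8a and Cd8b1. Rag1, a recombinase gene, had 0 UMIs in both libraries, Rag2 had 1 and 0, and Dntt, which adds bases at the join, had 4 and 1. Ptcra, the surrogate alpha chain of thymocytes, had 5 and 9. For these genes of assembly both libraries were near 0.

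Most of the leading segments were tied to 1 V beta partner. In Young, 998 of the 1179 Trav3-3 cells with a top V beta segment carried Trbv26 (84.6%), which made this pair 16.98% of all paired Young cells (16.0 to 18.0%). The pair was seen in 0 of 5251 paired Aged cells, which allows a share of up to 0.0702% by the exact interval. Trav14n-3 with Trbv12-1 followed with 367 Young and 12 Aged cells, Trav6-5 with Trbv19 with 268 and 0, Trav1 with Trbv13-2 with 253 and 3, and Trav7-4 with Trbv12-2 with 192 and 1. In Aged the leading pair, Trav17 with Trbv1, held 291 cells or 5.54% (4.94 to 6.20%), an interval that includes the next pair's share of 5.33%. It was followed by Trav6-3 with Trbv15 (280 cells), Trav19 with Trbv12-1 (274), Trav13d-1 with Trbv13-1 (218) and Trav5-4 with Trbv1 (205). None of the 5 leading pairs of Aged was seen in a Young cell.

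**Figure D3:**
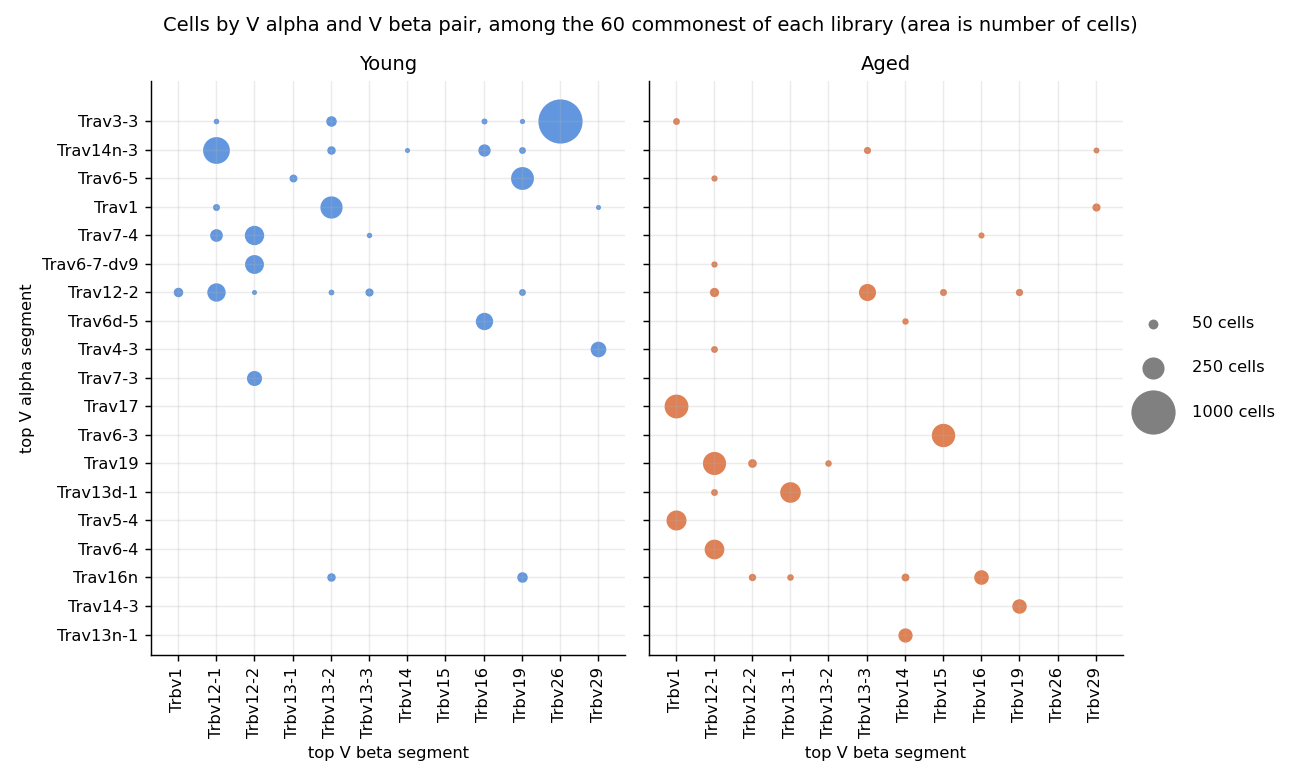
Cells by top V alpha segment (y axis) and top V beta segment (x axis) in Young (left) and Aged (right), for the segments of the 10 commonest pairs of either library, with the area of a point for the number of cells. Only pairs among the 60 commonest of each library are drawn, and the 998 cells of Trav3-3 with Trbv26 have no point in Aged.

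The same segment often had different partners in the 2 libraries. Trav17 went with Trbv3 in 91.9% of 62 Young cells and with Trbv1 in 90.7% of 321 Aged cells. Trav14n-3 went mainly with Trbv12-1 in Young (63.9%) and with Trbv17 in Aged (48.3%), and Trav12-2 mainly with Trbv12-1 in Young (48.1%) and Trbv13-3 in Aged (49.8%). Trav1 went with Trbv13-2 in 57.9% and Trbv2 in 24.9% of Young cells, and with Trbv29 in 65.4% of 52 Aged cells. Of 548 pairs seen in Young and 477 in Aged, 230 were seen in both, which is 42.0% of the Young and 48.2% of the Aged pairs. Pairs of 50 or more cells numbered 19 of the 548 in Young and 25 of the 477 in Aged, and 0 pairs reached 50 cells in both. With so few large pairs among all pairs, this 0 is not read as a result about the libraries. These 19 and 25 pairs held 60.3% and 55.3% of the paired cells.

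V alpha segments had fewer partners than V beta segments did, but also fewer to draw from. Paired cells showed 77 V alpha and 21 V beta segments in Young, and 79 and 22 in Aged. The part of this in the order was not tested. Over the 23 V alpha segments with 50 or more paired cells in Young, the median effective number of partners was 2.30, from 1.18 for Trav17 to 12.0 for Trav7-5. Over the 30 in Aged it was 1.82, from 1.07 for Trav6-3 to 6.66 for Trav6-7-dv9. V beta segments had a median of 6.13 partners over 17 segments in Young and 4.60 over 16 in Aged. The V beta segment Trbv12-1 had 4.96 effective V alpha partners in Young, below the median of that library. In Aged it had 10.3 (9.18 to 11.4), above the median, while Trbv12-2 had 17.1. Trbv26 in Young was the narrowest, with 1.57 effective partners. Some segments had almost the same partners as another segment, by the correlation of their partner shares over the 35 V beta segments. The highest correlations were between Trav7-3 and Trav6-7-dv9 in Young (r = 0.998) and between Trav5-4 and Trav17 in Aged (r = 0.998). In Young, Trav13-2 was most like Trav3-3 (r = 0.99) and Trav12-2 most like Trav3-1 (r = 0.97). In Aged, Trav10d was most like Trav17 (r = 0.99).

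Not every couple of like segments was common within single cells: Trav12-2 and Trav3-1 were not among the 15 commonest combinations in Young. The last of these 15 had 7 cells, and the count for Trav12-2 and Trav3-1 is not given here. A second V alpha segment of 2 or more UMIs was found in 866 of the 6379 Young cells with a top segment (13.6%, 12.7 to 14.4%) and in 652 of the 5572 Aged cells (11.7%, 10.9 to 12.6%). The segments came from the same numbered family in only 2.77% and 7.52% of these cells, so few were near-copies of the top segment. Cells with a second V alpha segment were deeper, with a median of 6581 UMIs in Young and 8333 in Aged, against 4514 and 5791.5 in the rest. A second V beta segment of 2 UMIs was also commoner in them, in 30.8% of such cells in both libraries, against 12.6% in Young and 15.4% in Aged. The part of doublets and of free RNA in these shares was not tested.

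The commonest combinations went mostly with 1 V beta segment. Counting ties too, 1079 Young cells held 2 V alpha segments of 2 or more UMIs each. Trav12-2 and Trav14n-3 made up 369 of them (34.2%), and 300 of these 369 carried Trbv12-1. Trav13-2 and Trav3-3 came together in 131 cells, 111 of them with Trbv26, and Trav1 and Trav4-3 in 89 cells, 88 of them with Trbv29. In Aged, 203 of 824 such cells (24.6%) held Trav10d and Trav17, of which 193 carried Trbv1. Next in Aged were Trav14n-3 and Trav16n in 45 cells, 39 with Trbv2, and Trav13-4-dv7 and Trav19 in 42 cells, 34 with Trbv12-1. Some smaller ones did not, such as Trav14n-3 and Trav3-3 in 14 Young cells, 4 of them with Trbv12-1. For V beta, counted in the same way, the commonest combination made up 11.6% of 1359 Young and 8.54% of 1323 Aged cells.

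The rule of a top segment therefore splits some groups of cells over several pairs. Among the 367 Young cells of Trav14n-3 with Trbv12-1, 274 also had a UMI of Trav12-2 (74.7%, 69.9 to 79.0%), while 333 of 5428 cells without Trbv12-1 did (6.13%). The mirror pair, Trav12-2 with Trbv12-1, held 173 Young cells, and 133 of them also had Trav14n-3 (76.9%). Among the cells of Trav3-3 with Trbv26, 35.2% also had Trav13-2, against 3.34% of the cells without Trbv26. Among the 291 Aged cells of Trav17 with Trbv1, 66.7% also had Trav10d, against 1.03% of the cells without Trbv1. Trav6-3 with Trbv15 in Aged was different: 5.36% of its 280 cells had any other V alpha segment, and in Young 11.2% of the cells of Trav6-5 with Trbv19 did. Both pairs were deep, with medians of 8948.5 and 11499.5 UMIs of all genes. Their median of V alpha UMIs was 2, against 3 or 4 in the other pairs of this paragraph, and the part of this was not tested.

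Cells with no V alpha UMI were not spread evenly over V beta segments. They made up 28.5% of the T cells in Young and 27.7% in Aged. By V beta segment, among those with 100 or more cells, the share ran in Young from 10.7% of 1232 Trbv12-1 cells (9.04 to 12.6%) to 61.2% of 209 Trbv31 cells (54.3 to 67.9%). In Aged it ran from 10.0% of 299 Trbv19 cells (6.87 to 14.01%) to 53.5% of 170 Trbv5 cells (45.7 to 61.2%). The shares did not follow depth: Trbv17 cells in Young had 57.0% without a V alpha UMI at a median of 7685.5 UMIs, and Trbv26 cells had 14.1% at 3440. For Trbv12-1 the share was 10.7% in Young and 38.2% of 2021 cells in Aged (36.1 to 40.4%), with medians of 4433 and 7145 UMIs. Whether the cells without a V alpha UMI use segments among the 41 with no unique word was not tested.

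**Figure D4:**
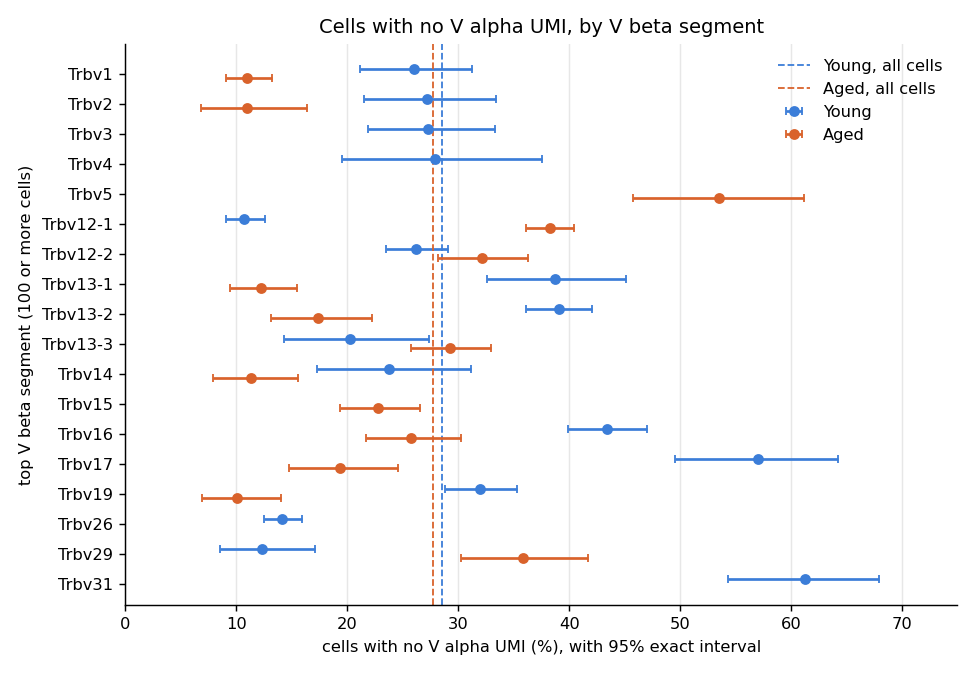
Share of cells with no V alpha UMI (x axis, %) for each top V beta segment of 100 or more cells (y axis) in Young (blue) and Aged (orange), with bars for the 95% exact interval and dashed lines at 28.5% and 27.7% for all T cells of each library. Trbv12-1 stands at 10.7% in Young and 38.2% in Aged.

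The V alpha measure missed most of the granzyme cells of Aged. The granzymes C to G are serine proteases of cytotoxic cells whose genes lie in a cluster. In Aged, 91.6% of their summed UMIs lay in the 27.7% of cells without a V alpha UMI, and 89.7% lay in 773 cells that had Trbv12-1 and no V alpha UMI. Their level was 3443 CPM in those 773 cells (3406 to 3480), and 149 CPM (141 to 157) in the 1176 Trbv12-1 cells with a top V alpha segment. Only 99 of the 773 cells had 20 or more granzyme UMIs, so a minority carried this level. The 773 cells were deeper than the 1176, with a median of 9857 UMIs against 6394. In Young, 24.8% of the granzyme UMIs lay in cells without a V alpha UMI, 17.4% in cells with tied segments and 57.8% in cells with a top segment, at 105, 243 and 83.5 CPM. Levels of granzyme genes in the pairs of Aged therefore leave out most of that library's granzyme RNA.

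Cells of different pairs differed in the genes of T cell state, within the same library. For each pair the summed CPM of a gene list was set beside that of all other paired cells. The cells of a pair are not replicates, so these are levels of 1 library with counting intervals and no test. In Young, Trav6-5 with Trbv19 stood out: the 8 genes of inhibitory receptors and exhaustion summed to 2.47 times the level of the other cells (2.40 to 2.54). Its cells were deep, with a median of 11499.5 UMIs against 4720.5, and the part of depth was not tested. Lag3, an inhibitory receptor, stood at 227 CPM against 35.0, and Pdcd1, which encodes PD-1, at 529 against 213. The naive and memory list stood at 0.454 times, with Tcf7, a factor of stem-like T cells, at 17.4 CPM against 126 and S1pr1, a receptor for leaving tissue, at 5.18 against 94.3. Ly6c2, a memory marker, stood at 125 CPM against 2866.

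The leading pair of Young had another profile, in cells with a median of 3375 UMIs against 5232. In Trav3-3 with Trbv26 the inhibitory list stood at 1.41 times (1.37 to 1.45), with Pdcd1 at 433 CPM against 215 and Lag3 at 32.0 against 55.6. Its cytotoxic list stood at 0.464 times, with Gzma, a granzyme, at 48.9 CPM against 309, and its effector memory list at 0.338 times, with Ly6c2 at 941 against 2853. Itgae, the integrin chain CD103 of resident T cells, was at 80.3 CPM against 36.0. Trav14n-3 with Trbv12-1 and Trav1 with Trbv13-2 were alike in that the inhibitory list stood at 0.707 and 0.686 times and the cytokine and chemokine list at 1.75 and 1.79 times. Ccl5, a chemokine, was the highest member of that list in both, at 9053 and 9419 CPM against 4879.6 and 4929.6 in the other cells. Trav7-4 with Trbv12-2 had the lowest inhibitory list of the 5, at 0.358 times (0.319 to 0.400), with Lag3 at 5.68 CPM against 54.0, and a naive and memory list at 1.46 times, with Il7r, the interleukin 7 receptor, at 213 CPM against 97.5.

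Trav12-2 with Trbv12-1 in Young, the mirror of Trav14n-3 with Trbv12-1 and named here after its values were seen, had an inhibitory list at 0.709 times, an effector memory list at 1.66 and a cytokine list at 2.10, beside 0.707, 1.87 and 1.75 for Trav14n-3 with Trbv12-1. The cycling list stood apart, at 0.425 and 0.969 times. No other such couple of pairs was compared.

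In Aged the 5 leading pairs fell on either side. In Trav19 with Trbv12-1 the inhibitory list stood at 1.72 times (1.67 to 1.76), with Ctla4, an inhibitory receptor, at 624 CPM against 278. In Trav6-3 with Trbv15 it stood at 1.52 times, with Tox, a factor of exhausted T cells, at 265 CPM against 130 and Tcf7 at 5.53 against 83.2. Its cycling list stood at 1.58 times, with Mki67 at 237 CPM against 138. In Trav13d-1 with Trbv13-1 the inhibitory list stood at 1.402 times and the cytotoxic list at 1.63, with Gzmb, the main granzyme of killer T cells, at 3579 CPM against 2000. Trav17 and Trav5-4, both with Trbv1, stood the other way: their inhibitory lists were at 0.547 and 0.588 times and their cytotoxic lists at 0.624 and 0.551. Tnf, the cytokine, was at 116 CPM against 47.6 in Trav5-4 with Trbv1 and at 75.5 against 48.5 in Trav17 with Trbv1.

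**Figure D5:**
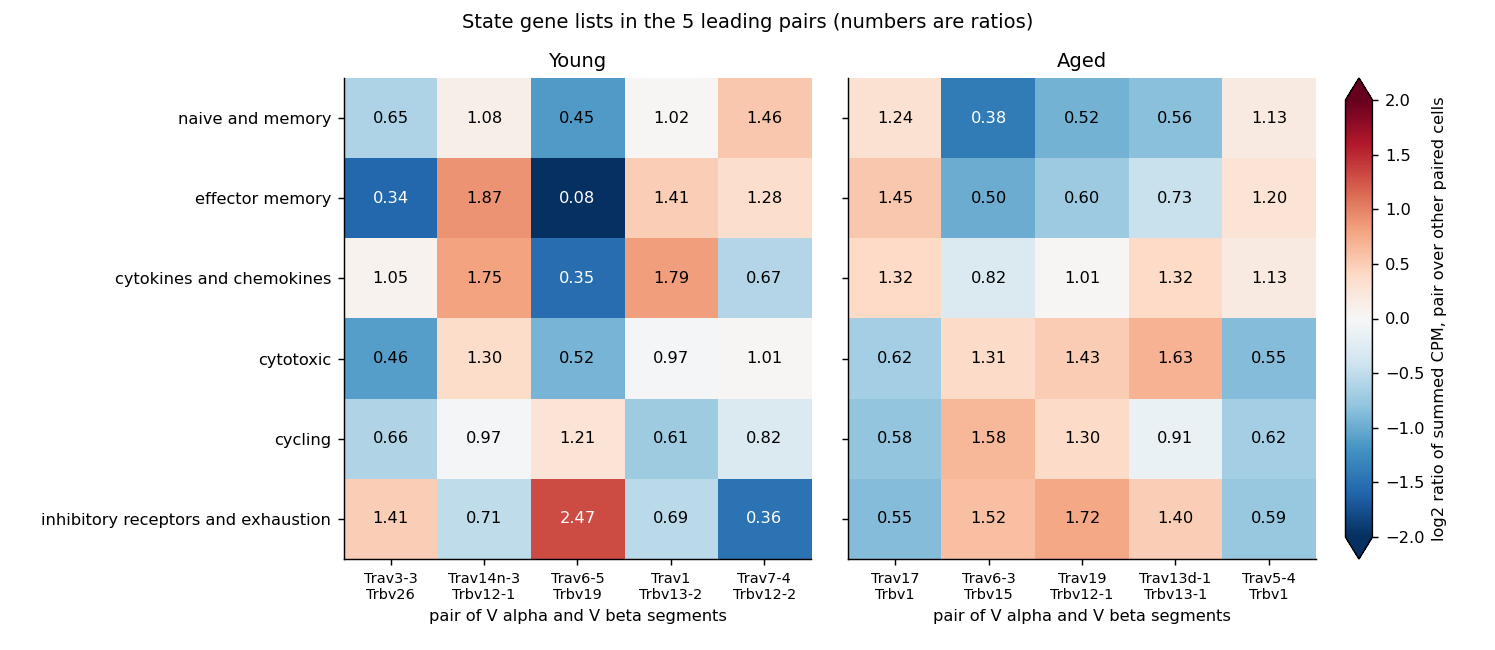
Ratio of the summed CPM of 6 gene lists (y axis) in the cells of each of the 5 leading pairs (x axis) to that in all other paired cells of the same library, with the ratio printed and its log2 as colour. Trav6-5 with Trbv19 has the highest inhibitory list in Young (2.47) and the lowest effector memory list, and the lists of Aged divide the pairs with Trbv1 from the other 3.

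In the cells of Trav1, genes of unconventional T cells had few UMIs, but some were near 0 in the T cells as a whole. Trdc and Trgc1 together had 47 UMIs in all Young T cells (0.773 CPM) and 40 in all Aged T cells (0.614 CPM). Their absence from the cells of Trav1 is therefore not particular to Trav1. Over the 495 Young cells of Trav1, Zbtb16, the factor of innate-like T cells, Il17a, Trdc and Trgc1 had 0 UMIs, and Klrb1c, an NK receptor, had 6. Levels of Zbtb16, Il17a and Klrb1c in all T cells are not given here, so their counts are not read as particular to Trav1. The 54 Aged cells of Trav1 had 0 UMIs of Zbtb16, Klrb1c, Trdc and Trgc1, and the cells of the Trav11 family, 1 in Young and 6 in Aged, were too few to describe. The segments shared with the delta chain locus, which carry dv in their names, were 10 of the 130. Trav6-7-dv9 was the commonest, with 230 Young cells (3.61%) and 75 Aged cells (1.35%), and 83.2% of its paired Young cells carried Trbv12-2. Trav16d-dv11 had 64 and 53 cells, Trav13-4-dv7 61 and 30, Trav4-4-dv10 31 and 18, Trav14d-3-dv8 30 and 24, and Trav21-dv12 27 and 7. Trav15-2-dv6-2 was on top in 16 Young cells and 1 Aged cell. In Young, 36 cells held it with Trav7-4 at 2 or more UMIs each, of which 33 carried Trbv12-2. Trav15-1-dv6-1 had 6 and 12 cells, Trav15d-1-dv6d-1 3 and 6, and Trav15d-2-dv6d-2 had 0 UMIs in both.

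The other experiment of the series, tumour CD8+ T cells of WT mice and of mice lacking Bfar in CD8 T cells (KO), all of 10 to 12 weeks and 3 pooled per library, used a kit that reads the far, 3′ end of the RNA. There V alpha UMIs were sparse, at 26.1 CPM in WT and 26.0 in KO, and 16.2% and 15.7% of T cells had one. Of the cells with a top segment, 79.3% in WT and 77.3% in KO rested on 1 UMI. Trav3-3 was also common in these mice, at 10.99% of 1392 WT cells and 9.80% of 1225 KO cells, and Trav4-4-dv10 stood at 12.6% in WT and 1.63% in KO. The kits differ in what they read, so these levels were not compared with those of Young and Aged.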

How the data were processed

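Single-cell RNA was measured in 4 libraries of sorted tumour CD8+ T cells, 1 per group. The authors deposited UMI counts per gene and cell (filtered 10x matrices). Per the submitters' processing notes these were made with Cell Ranger 6.0.0, Seurat 3.2.3 and mm10, while the version in the file headers is 7.1.0 (Young, Aged) or 6.1.1 (the other 2 libraries). No annotation of cells or V(D)J contigs was used here. Cells needed 1000 UMIs, 500 genes and at most 10% mitochondrial UMIs. T cells needed 1 UMI of Cd3d, Cd3e or Cd3g and 1 of Cd8a or Cd8b1, and no doublet caller was run. The top segment is the one with most UMIs, ties being left out. The analysis used Python 3.11.15, numpy 2.4.6, scipy 1.17.1, pandas 2.3.3 and Biopython 1.88. Intervals are exact Clopper-Pearson (shares), exact Poisson (CPM) or conditional binomial (ratios), and analytic for the inverse Simpson number, each at 95%. UMIs are counted once per molecule, and the intervals cover counting error only. Ratios for the filtered count of genes used a pseudocount of 1 CPM. Transcripts, types and coordinates are from GENCODE M21, in which all 130 V alpha gene identifiers were found. No source used here says how reads that match several genes were counted.

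Segments named are the 8 commonest of each library, those with 100 cells whose share differs 3-fold, Trav11, Trav11d, Trav1 and those with dv in the name. Pairs named are the 5 commonest of each library, and genes named are the first, highest and lowest of each list. The members, lists and rules were chosen with earlier results of these data known. The calculations were tested on simulated data. 1 gene of the list of unconventional T cells is not reported here.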

Additional observations from a re-analysis of the deposited data

Results flagged for a closer look

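The J segments of the alpha chain lie outside the V alpha measure, and their rows held a signal above the 3 counts that 0 allows: 42 Traj UMIs in Young and 30 in Aged. This is too few to tell which J segment the V alpha segments were joined to in most cells.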

How the results depend on the processing

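With 1 library per group no library could be left out. No paired analysis was possible because each group has 1 sample. The order of Young and Aged was the same under 9 of 9 alternatives for the effective numbers and for the leading shares. For the share of cells with a top segment it was the same under 8 of 9, and turned when cells were thinned to 2000 UMIs. No alternative gave a segment to cells without a V alpha UMI, so the effective numbers leave these cells out throughout. With at least 2 UMIs for a top segment, 47.5% of Young and 51.3% of Aged cells had one, the effective number of V alpha segments was 11.9 and 27.1, the leading segment held 21.7% and 8.48%, and in Aged the effective number of pairs was 45.8 and the leading pair held 6.73%. With a top segment at least 2 times the second, the cells with one were 60.9% and 64.3%, and in Young there were 20.8 effective pairs, the leading pair holding 18.4%. Thinned to 2000 UMIs, 46.9% and 45.5% of cells had a top segment, Young had 20.003 effective pairs, and the leading pairs held 18.6% and 6.87%. With a gate of 1 Trac and 2 CD8 UMIs, 68.6% and 68.8% had a top segment, the effective numbers of V alpha segments were 15.9 and 28.8, the leading Young segment held 16.3%, and Young had 30.0 effective pairs with a leading pair of 12.5%. Merged to families, the effective numbers were 8.41 and 11.9, the leaders Trav3 at 22.6% and Trav6 at 14.96%, and Aged had 42.3 effective pairs. Without cells with a second segment of 2 UMIs, chosen after seeing the data, 63.2% and 66.2% had a top segment, and the leading Young pair held 18.0%. Without a filter on low counts, 27 segments were at least 1.5 times higher and 17 lower in Aged, with no share over all genes to set beside them. In each case the cause was not tested. The leading Aged pair was Trav6-3 with Trbv15 instead of Trav17 with Trbv1 under 3 of these 9: a top segment 2 times the second (5.77%), the Trac gate (6.101%) and no second segment (5.98%).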
